A study of Mus musculus with 8 samples.

Results

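Iron uptake, storage and export were followed through 10 genes in spleens of 4 wild-type and 4 TTPΔARE mice. The genes are all rows of the expression table whose symbol is Tfrc, Tfr2, Slc11a2, Slc25a37, Fth1, Ftl1, Hmox1, Slc40a1, Slc11a1 or Ireb2. They make up 12 of 23517 transcript rows, and 10 of 17738 gene symbols, since Fth1 and Slc11a2 have a pair of rows each. The animals were male C57BL/6 mice aged 8 to 12 weeks, untreated, with 1 spleen and 1 library per mouse. Tristetraprolin (TTP), the product of Zfp36, destabilises mRNAs that carry AU-rich stretches behind their coding region, in the 3′ untranslated region (UTR). In TTPΔARE mice one such stretch is deleted from Zfp36, whose mRNA is itself a target of TTP. Zygosity, litter and batch are not stated in the labels. Values are FPKM, fragments scaled to transcript length and library size, so that levels can be compared between genes. Differences are given in log2(FPKM + 0.5), which understates those of low genes. Ratios and folds between the genotypes are these differences turned back from log2, and not ratios of the FPKM means.

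Mammalian cells take up iron bound to transferrin through the transferrin receptor Tfrc, move it out of the endosome through Slc11a2 (DMT1) and, in erythroid cells, carry it into the mitochondrion for heme synthesis through Slc25a37 (mitoferrin 1). In the spleen, red pulp macrophages run the opposite side of the cycle: they engulf old red cells, open heme with Hmox1, store iron in ferritin made of Fth1 and Ftl1 subunits, and release it through the exporter ferroportin, Slc40a1. Iron regulatory proteins, of which Ireb2 encodes one, bind stem-loops named iron-responsive elements (IREs). An IRE in a 5′ UTR blocks translation when iron is scarce, and IREs in the 3′ UTR of Tfrc protect that mRNA from decay. TTP has been reported to bind the Tfrc mRNA and to promote its decay.

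The IREs are shown because iron regulatory proteins bind them, and 5 of the 10 genes held a model of one in a UTR. A search for a C, any 5 bases and a CAGTGN loop was made on the transcript strand only, with at least 4 of 5 bases of the upper stem able to pair. Loops are in capitals, in windows of 27 bases from GENCODE M21 transcripts (GRCm38/mm10), and the DNA letter T stands for U.
Fth1, 5′ UTR: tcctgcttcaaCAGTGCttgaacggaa
Ftl1, 5′ UTR: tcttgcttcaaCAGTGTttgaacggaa
Slc40a1, 5′ UTR: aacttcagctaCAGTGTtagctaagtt
Slc11a2, 3′ UTR of the longer transcript: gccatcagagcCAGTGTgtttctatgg
Tfrc, 3′ UTR, element 1: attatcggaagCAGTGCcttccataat
Tfrc, 3′ UTR, element 2: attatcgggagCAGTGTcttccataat
Tfrc, 3′ UTR, element 3: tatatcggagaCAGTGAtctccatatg
Tfrc, 3′ UTR, element 4: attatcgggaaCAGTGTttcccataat

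The Fth1 window lies at chr19:9982733-9982759 on the plus strand, and that of Ftl1 at chr7:45459780-45459806 on the minus strand. The Slc40a1 window is at chr1:45925466-45925492 (minus) and the Slc11a2 window at chr15:100395154-100395180 (minus). Those of Tfrc span chr16:32631220-32631246, chr16:32631599-32631625, chr16:32631664-32631690 and chr16:32631711-32631737 (plus). With all 5 upper pairs and at least 4 of 5 lower pairs required, 8 of 20871 coding transcripts held the model in the 5′ UTR (0.0383%), among them those of Fth1, Ftl1 and Slc40a1. In the 3′ UTR 11 did (0.0527%), and Tfrc was the one with 4 matches, against 1 in each of the others. The Slc11a2 window had 4 upper and 1 lower pair, a looser match that 3.80% of coding transcripts hold in the 3′ UTR. Only the longer Slc11a2 row, of 4415 bases, holds it, and the row of 3025 bases ends in another 3′ UTR.

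AU-rich heptamers of the kind that TTP binds were looked for because the allele acts on TTP. TATTTAT, searched on the transcript strand, stood in the 3′ UTR of 4 of these genes and of 24.9% of all coding transcripts. Heptamers are in capitals.
Tfrc, heptamer 1: cactgagaTATTTATtgtttatt
Tfrc, heptamer 2: ttattgttTATTTATcagtgaca
Slc40a1: ttagcagaTATTTATtatctact
Slc25a37: tttaacttTATTTATggataatt
Slc11a2, shorter transcript: tcgatatgTATTTATgtgaaccc

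The windows of 23 bases lie at chr16:32631140-32631162 and chr16:32631151-32631173 (plus) for Tfrc, and on the minus strand at chr1:45909072-45909094 for Slc40a1, chr14:69242072-69242094 for Slc25a37 and chr15:100388815-100388837 for Slc11a2. The Tfrc heptamers overlap in their windows and end upstream of its first IRE model.

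**Figure D1:**
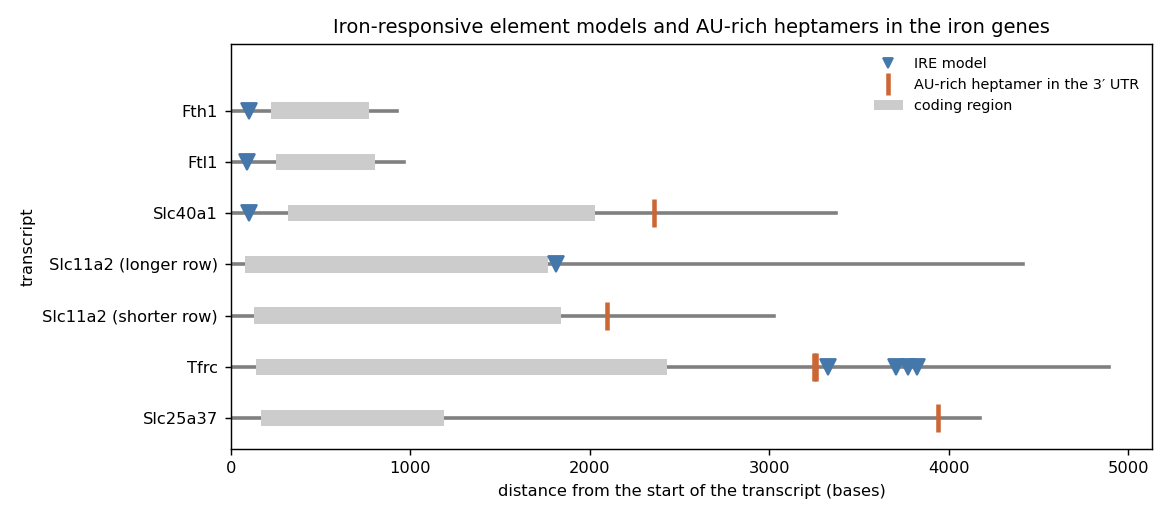
Transcripts drawn from their start, in bases, with coding regions as grey boxes, IRE models as triangles and AU-rich heptamers of the 3′ UTR as bars. The 5′ models of Fth1, Ftl1 and Slc40a1 stand before the coding region, while Tfrc holds 4 models and 2 heptamers behind it.

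By their means over the 8 spleens the storage genes were the most abundant. Ftl1 averaged 548 FPKM over the 8 spleens and stood 3.57-fold above Fth1 at 153 FPKM. Hmox1 at 127 FPKM and Slc40a1 at 122 FPKM followed. Slc25a37 had 32.6 FPKM, the phagosomal metal transporter Slc11a1 17.9, Tfrc 13.6, Ireb2 12.9, Slc11a2 3.31 and the second transferrin receptor Tfr2 1.1 FPKM. The sample ranges of Fth1 and Hmox1 overlapped, as did those of Hmox1 and Slc40a1, Slc11a1 and Tfrc, and Tfrc and Ireb2. The order of these neighbours did not hold in every spleen, as with Fth1 at 156 and Hmox1 at 165 FPKM in wild-type replicate 3. Differences between them within spleens were not tested. The other neighbouring pairs did not overlap in any sample. The lowest value behind a comparison, Tfr2 in wild-type replicate 1, stood for about 17 fragments, while each Ftl1 value stood for at least 12799.6.

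Libraries held an estimated 28.3 to 32.2 M fragments. Zfp36, the targeted gene, stood at 37.9, 42.1, 44.9 and 36.4 FPKM in wild-type and 57.5, 46.1, 55.1 and 52.9 FPKM in TTPΔARE replicates 1 to 4, and rose (log2 0.39, limma adjusted p = 0.0323). These levels do not show the deletion itself. Spleen markers were present: 10 B cell genes summed to 1050.4 to 1118 FPKM in wild-type and 915 to 988 FPKM in TTPΔARE libraries, and 2 fell (Fcer2a with log2 -0.60 and Cd22 with -0.57). Of 10 monocyte genes 3 fell (Ace with -0.75, Lyz2 with -0.49 and Nr4a1 with -0.38), while 5 had positive values and the median was 0.05. By limma 0 of 15 proliferation genes and 0 of 9 T cell genes passed. At an unadjusted p under 0.05 were 2 and 5 of them, against the same 21.1% of all transcripts. Wild-type replicate 3 stood apart from the rest of its group. Its mean over 26 erythroid genes was 0.98 above the wild-type mean on the log2 scale, against -0.64 to 0.23 in the others, and its mean over 13 neutrophil genes 0.93 above it, against -0.42 to -0.16. It was the highest wild-type spleen for 8 of the 10 iron genes, so each result is also given without it where that changes a call.

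By limma, 0 of the 10 iron genes passed at an adjusted p under 0.05, against 4.00% of 16608 transcripts tested (2.01% higher). All 12 rows passed the filter of a mean of at least 0.5 FPKM. At an unadjusted p under 0.05 were 3, Slc25a37, Tfrc and Slc40a1, against 21.1% of all transcripts. Values were positive for 9 of 10, against 51.0% of all, with a median log2 value of 0.15 against 0.003. None of the 10 had groups without overlap, which 12.5% of all transcripts had (6.53% with TTPΔARE higher). Without wild-type replicate 3, 2 of the 10 rose, Slc25a37 and Slc40a1, against 2.63% of all transcripts. That spleen stands out partly by the values of these genes, so the count without it is a description and not comparable with that share.

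Tfrc brings transferrin iron into the cell. Its levels in wild-type replicates 1 to 4 were 8.40, 7.55, 16.2 and 12.5 FPKM, and in the TTPΔARE replicates 13.3, 12.2, 17.9 and 21.2 FPKM. TTPΔARE replicates 3 and 4 were the highest and wild-type replicates 1 and 2 the lowest, and the groups overlapped through wild-type replicates 3 and 4. The means were 11.1 ± 3.97 and 16.2 ± 4.2 FPKM (SD, n = 4 each). The ratio was 1.46 with a 95% interval of 1.03 to 2.06 (log2 0.54, SE 0.228, limma adjusted p = 0.202). The gene lies on chromosome 16 at 32608896 to 32632794 (GRCm38). Without wild-type replicate 3 its log2 value was 0.74 and it still missed the threshold (adjusted p = 0.0696).

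Slc25a37 had the smallest p of the 10. The wild-type spleens stood at 21.9, 24.0, 34.9 and 27.8 FPKM, and those of TTPΔARE at 35.3, 32.1, 39.8 and 45.3 FPKM. Every TTPΔARE spleen lay above wild-type replicates 1, 2 and 4, and 3 of the 4 lay above all wild-type spleens. From 27.2 ± 5.72 to 38.1 ± 5.70 FPKM (SD, n = 4 each) the ratio was 1.41, with a 95% interval of 1.14 to 1.74 (log2 0.49, SE 0.139, adjusted p = 0.0748 by limma). The gene spans 69241848 to 69285544 on chromosome 14. Without wild-type replicate 3 it passed (log2 0.62, SE 0.117, limma adjusted p = 0.0212).

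Tfr2, a transferrin receptor that erythroid precursors and liver use, had low levels. They were 0.205, 0.599, 1.66 and 0.658 FPKM in the wild-type and 1.46, 0.624, 1.90 and 1.74 FPKM in the TTPΔARE replicates. Wild-type replicate 3 stood with the higher TTPΔARE spleens, and TTPΔARE replicate 2 with the lower wild-type ones. The log2 value was 0.65 with an SE of 0.312 (limma adjusted p = 0.259), and the interval of the ratio, 0.977 to 2.53, was the widest of the 10. With a pseudocount of 0.1 in place of 0.5 it was 0.97, so the size of this difference rests on that choice. Without wild-type replicate 1 it was 0.40 and without wild-type replicate 3 0.94.

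Slc11a2, which carries iron out of the endosome, was close between groups. In the shorter row, NM_008732, wild-type replicates had 2.67, 3.08, 3.56 and 3.06 FPKM and TTPΔARE replicates 3.45, 3.51, 3.62 and 3.49 FPKM. The TTPΔARE values lay close together and above all wild-type spleens but replicate 3 (log2 0.17, limma adjusted p = 0.241). In the longer row, NM_001146161, which holds the IRE, the values were 1.99, 2.36, 2.68 and 2.66 against 2.78, 2.41, 2.52 and 2.32 FPKM (log2 0.05, adjusted p = 0.83 by limma). The rows share 1708 bases of exon, and how the authors divided shared reads between them is not given in the sources used here.

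**Figure D2:**
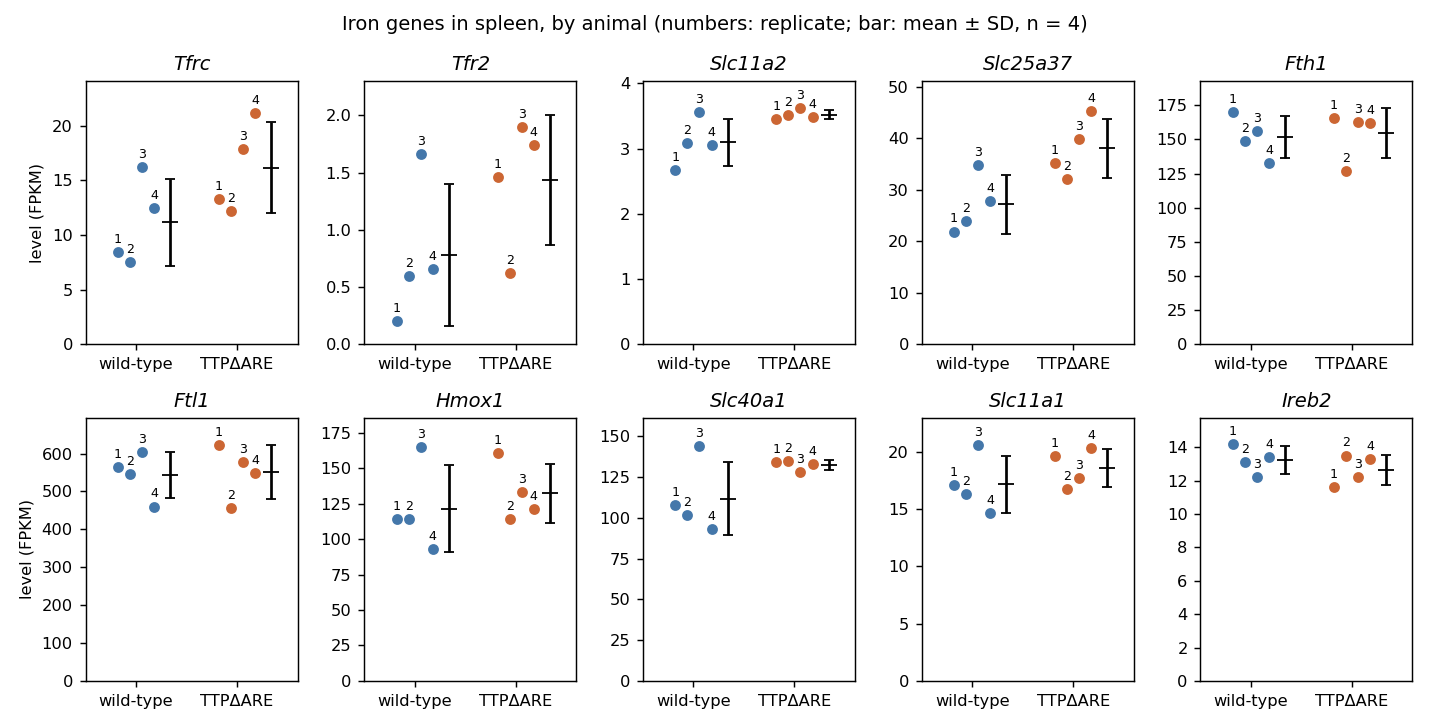
Level in FPKM of each iron gene (linear axes from 0) in each spleen, wild-type in blue and TTPΔARE in orange, with replicate numbers beside the points and bars for mean ± SD (n = 4). Wild-type replicate 3 lies within or above the TTPΔARE range for every gene shown, and the ferritin groups coincide.

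Slc40a1, the iron exporter that macrophages use to return iron to the blood, was tightly grouped in TTPΔARE spleen. Its TTPΔARE values were 134, 135, 128 and 133 FPKM, and its wild-type values 108, 102, 144 and 93.1 FPKM. All 4 TTPΔARE spleens exceeded wild-type replicates 1, 2 and 4, and wild-type replicate 3 exceeded them all. The means were 112 ± 22.4 and 132 ± 3.25 FPKM (SD, n = 4 each), and the ratio was 1.20 with a 95% interval of 1.01 to 1.42 (log2 0.26, SE 0.112, limma adjusted p = 0.208). It lies on chromosome 1 at 45908070 to 45926532. Without wild-type replicate 3 the log2 value was 0.39, and it passed (SE 0.0705, limma adjusted p = 0.0185).

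Hmox1, the inducible heme oxygenase that frees iron from heme, varied within both groups. Wild-type replicates stood at 114, 114, 165 and 93.2 FPKM, and TTPΔARE replicates at 161, 114, 133 and 121 FPKM. The highest spleen of each group, wild-type replicate 3 and TTPΔARE replicate 1, lay close together (log2 0.14, SE 0.157, limma adjusted p = 0.671). Its log2 value was 0.30 without wild-type replicate 3, 0.04 without TTPΔARE replicate 1 and 0.02 without wild-type replicate 4. Slc11a1, which moves metal out of phagosomes and is made by macrophages and neutrophils, had 17.1, 16.3, 20.6 and 14.7 against 19.6, 16.8, 17.7 and 20.3 FPKM. Its TTPΔARE range lay within the wild-type range (log2 0.12, adjusted p = 0.533 by limma), with 0.21 without wild-type replicate 3, 0.08 without TTPΔARE replicate 4 and 0.05 without wild-type replicate 4.

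The ferritin subunits did not differ detectably. Ftl1, the light chain, had 565, 545, 605 and 460.2 FPKM in wild-type and 623, 456, 578 and 548 FPKM in TTPΔARE spleens. Fth1, the heavy chain with ferroxidase activity, had 169.9, 149, 156 and 133 against 166, 127, 163 and 162 FPKM in its coding row. The lowest spleens were wild-type replicate 4 and TTPΔARE replicate 2 for both subunits. The ratio between genotypes was 1.01 for each, with 95% intervals of 0.853 to 1.20 for Ftl1 and 0.869 to 1.18 for Fth1 (limma adjusted p = 0.956 and 0.949). The second Fth1 row, NR_073181, had a ratio of 0.993 and shares 923 of the 929 exon bases of the coding row. Fth1 to Ftl1 ratios of FPKM ranged from 0.258 to 0.30 over the 8 spleens, with a mean of 0.281 in each genotype. Both subunits have processed pseudogenes (Fth-ps2, Fth-ps3, Ftl1-ps1, Ftl1-ps2 and Ftl2-ps in RefSeq), which have no rows of their own, and how reads that match several copies were handled is not given in the sources used here.

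Ireb2, which encodes an iron regulatory protein that binds the IREs, varied little. Its levels were 14.2, 13.1, 12.2 and 13.4 FPKM in wild-type and 11.6, 13.5, 12.2 and 13.3 FPKM in TTPΔARE spleens. The coefficient of variation was 6.10% and 7.11% within the groups, the groups overlapped, and the log2 value was -0.06 (95% interval of the ratio 0.864 to 1.06, limma adjusted p = 0.642). Aco1, the gene of the other iron regulatory protein, had a log2 value of 0.08 (limma adjusted p = 0.648).

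Set against each other by role, the uptake genes lay further above wild-type by median than the storage and export genes. This did not hold gene by gene, since Slc11a2 (log2 0.17) lay below Slc40a1 (0.26). The median log2 value was 0.52 for the 4 uptake genes (Tfrc, Tfr2, Slc11a2 and Slc25a37) and 0.12 for the 5 storage, heme and export genes, against 0.003 for all transcripts. The mean log2 level of the uptake genes minus that of the others was -4.66, -4.38, -4.01 and -3.95 in wild-type and -4.11, -4.06, -3.74 and -3.68 in TTPΔARE spleens. The groups overlapped, since wild-type replicates 3 and 4 lay above TTPΔARE replicates 1 and 2, and the difference of the means was 0.35. With a pseudocount of 0.1 that difference was 0.44, and with a pseudocount of 1 it was 0.30. The ratio of Tfrc to Slc40a1 in FPKM was 0.0995 ± 0.0287 in wild-type and 0.122 ± 0.0330 in TTPΔARE spleens (SD, n = 4 each), also overlapping. These are descriptions, without a test.

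**Figure D3:**
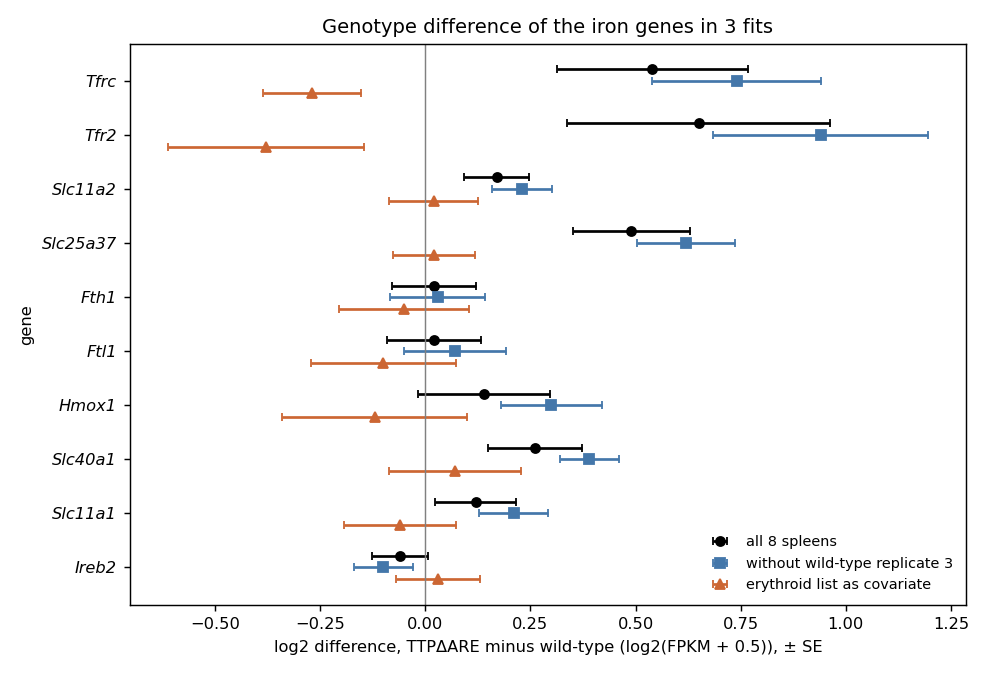
Log2 difference, TTPΔARE minus wild-type, with its SE for each iron gene, with all 8 spleens (black), without wild-type replicate 3 (blue) and adjusted for the erythroid list mean (orange). Slc25a37 lies at 0.49, 0.62 and 0.02 in the 3 fits and Tfrc at 0.54, 0.74 and -0.27.

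Erythroid markers were also higher by mean in TTPΔARE spleens, and their mean varied between spleens with Tfrc, Tfr2 and Slc25a37. Slc11a2 did not follow it in full, since in its shorter row replicate 4 of each genotype stood just below replicate 2. Of 26 erythroid genes tested 6 rose by limma, against 2.01% of all transcripts. All 26 had positive values, and the median log2 value was 1.23. Without wild-type replicate 3, 25 rose, but that spleen stands out partly by this list, so the count is a description only. The mean of the 26 genes per spleen was -0.57, -0.64, 0.98 and 0.23 in wild-type and 1.08, 0.65, 1.65 and 1.62 in TTPΔARE, relative to the wild-type mean. Wild-type replicates 3 and 4 and TTPΔARE replicates 3 and 4 were the higher spleens of their groups for this mean, as for Tfrc, Tfr2 and Slc25a37. With this mean as a covariate the log2 value of Slc25a37 was 0.02 (limma adjusted p = 0.976), that of Tfr2 -0.38 (0.699) and that of Tfrc -0.27 (adjusted p = 0.542, unadjusted p = 0.0399). The median was then -0.13 for the 4 uptake genes and -0.06 for the 5 storage, heme and export genes. Tfrc was the 1 gene of the 10 at an unadjusted p under 0.05 in that fit, against 8.74% of all transcripts, and its direction was the opposite of that without the covariate. Over all tested transcripts 0 rose and 0 fell by limma in that fit, so its high adjusted p-values are not particular to the iron genes. The covariate itself differed between the genotypes, and the fit can separate it from genotype only in part. In whole spleen RNA, more cells of a type and more RNA per cell cannot be told apart.

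The wild-type spleens with the most Tfrc did not have the most Alas2, which starts heme synthesis in erythroid cells. Alas2 stood at 26.5, 33.0, 20.2 and 19.2 FPKM in wild-type replicates 1 to 4 and at 43.8, 44.7, 67.1 and 66.4 FPKM in the TTPΔARE replicates (log2 1.15, limma adjusted p = 0.00960). Wild-type replicates 3 and 4 were thus the lowest for Alas2 and the highest of their group for Tfrc. Hba-a1, an α-globin gene, had the same wild-type order as Alas2, with 2461, 3097, 1751 and 1626 FPKM in the wild-type replicates. Among TTPΔARE spleens replicates 3 and 4 were highest for Tfrc, Alas2 and Hba-a1 alike.

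**Figure D4:**
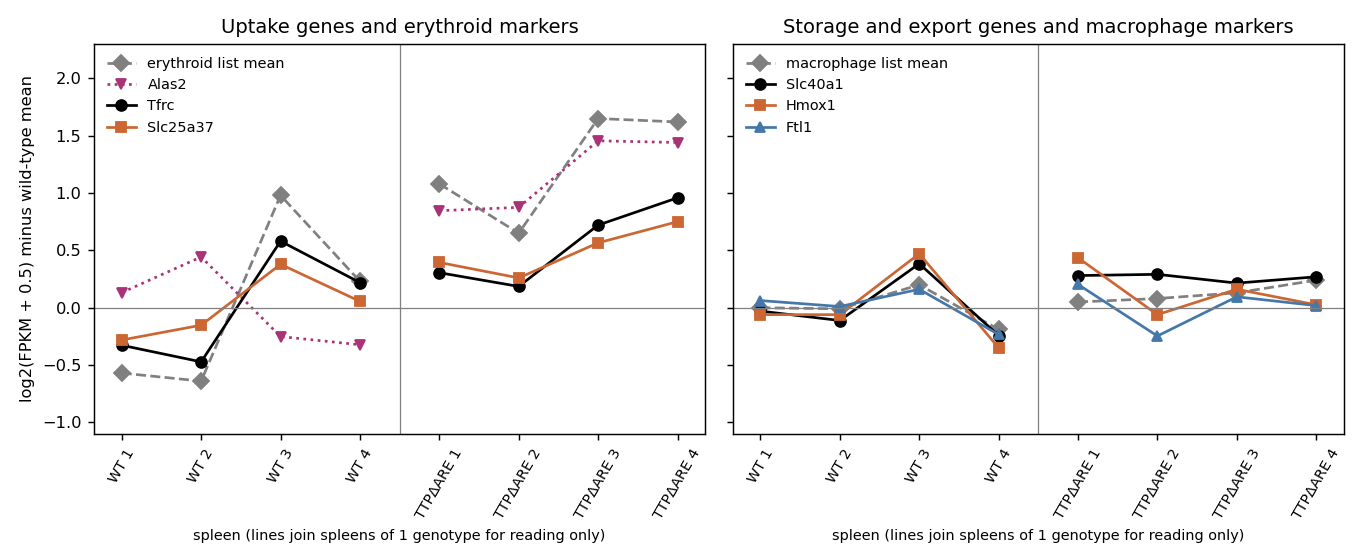
Level of each spleen relative to the wild-type mean, in log2(FPKM + 0.5), for uptake genes with Alas2 and the erythroid list mean (left) and for storage and export genes with the macrophage list mean (right). Tfrc and Slc25a37 follow the erythroid mean in wild-type replicates 3 and 4 while Alas2 lies below 0 there, and Slc40a1 is above 0 in all TTPΔARE spleens.

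Macrophage markers were also higher in part. The list held 19 macrophage genes, not all of them particular to the red pulp. Of these 2 rose by limma, against 2.01% of all transcripts. They were the scavenger receptor Marco (log2 0.46, limma adjusted p = 0.0346) and Emr1, which encodes F4/80 (log2 0.36, adjusted p = 0.0354). The median of the 19 was 0.09, and Spic, the transcription factor that red pulp macrophages need, stood at 0.19 (limma adjusted p = 0.286). The 19 had sums of 570.3 to 754 FPKM in wild-type against 679 to 814 FPKM in TTPΔARE libraries, with none listed at 0. With the mean of this list as a covariate Slc40a1 had a log2 value of 0.11 (limma adjusted p = 0.625) and Hmox1 -0.03 (0.949). Tfrc and Slc25a37 each had 0.35 in the same fit and Tfr2 0.36, also below their values without it. With the erythroid mean as the covariate Slc40a1 had 0.07 and Hmox1 -0.12. A lower value was thus not particular to either covariate. Of 13 neutrophil genes 2 rose (Retnlg with log2 0.90 and Mmp8 with 1.17), also against 2.01% of all transcripts. The sums of the 13 were 113 to 311 FPKM in the wild-type libraries against 162 to 281 FPKM. No fit with the neutrophil list was made. The part of either cell type in the Slc40a1, Hmox1 and Slc11a1 values was not tested.

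Other genes of iron handling were counted from a list of 49 symbols, of which 45 were found and 36 tested. By limma 1 rose, 1 fell and 34 did not pass, against 4.00% of all transcripts called in either direction. This count is near that share and is not read as a result about iron genes. The median log2 value was 0.10, against 0.003 for all transcripts. Groups did not overlap for 5 genes with TTPΔARE higher and 2 with it lower, against 12.5% of all transcripts. Bmp2, a ligand from liver endothelium that drives hepcidin production, had 2.91, 3.75, 3.57 and 3.39 FPKM in wild-type replicates against 4.66, 4.53, 6.23 and 4.91 FPKM, without overlap, and rose 1.43-fold (log2 0.51, adjusted p = 0.0209). Cybrd1, a ferric reductase of the gut, fell from 1.54, 1.16, 1.29 and 1.44 to 0.758, 1.09, 0.843 and 0.781 FPKM (log2 -0.44, adjusted p = 0.0348). The abundant iron chaperone Pcbp1 stood at -0.01 and the endosomal sorting factor Snx3 at 0.18 (adjusted p = 0.933 and 0.114 by limma). Without wild-type replicate 3, 4 rose and 1 fell. Beside Bmp2 and Cybrd1 these were the mitochondrial glutaredoxin Glrx5 (log2 0.57), the endosomal ferrireductase Steap3 (0.89) and Lcn2 (1.48), which is also on the neutrophil list. Wild-type replicate 3 was far above the other wild-type spleens for Lcn2 (6.47 against 1.22 to 1.46 FPKM), so this count is a description only.

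The genes whose pattern over the 8 spleens was most like Tfrc were searched among 6412 symbols with a mean of at least 5 FPKM. Likeness was the root mean square difference of log2 levels, each centred on its own mean. Abcb10, a mitochondrial transporter of erythroid cells, was nearest to Tfrc at 0.0777, where the Tfrc profile itself had a spread of 0.460. Gclm (0.155), Marchf8 (0.166; listed under a date in the table), Nxpe2 (0.166) and Prdx2 (0.169) followed. Nearest to Slc25a37 were 8430419L09Rik (0.0792), Dhrs11 (0.0838), Stom (0.0883), Xpo7 (0.102) and Marchf8 (0.103), against a spread of 0.329. For Slc40a1, with a spread of 0.213, they were Rab3il1 (0.0843), Kcnj10 (0.0913), Dtx3 (0.102), Lap3 (0.107) and Sppl2b (0.109).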

How the data were processed

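The authors deposited FPKM per RefSeq transcript in 1 table of 8 libraries. Replicate numbers only follow the order of the samples within each genotype and pair no animals. Per the submitters' processing notes BWA and mm10 were used; the counting tool, annotation, strand setting and filters are not stated in the labels or the table. Library depth was derived with GENCODE M21 lengths from values up to 0.5 FPKM: 40.2 to 43.7% were whole fragments within 0.05, too few to rebuild counts, so no count model was used. P-values set the genotype difference against the spread between spleens within a genotype, and cannot separate it from litter or batch, which are not stated.

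The 16608 transcripts averaging 0.5 FPKM or more were tested as log2(FPKM + 0.5) by limma 3.58.1 (R 4.3.3; moderated variances with trend; two-sided), adjusted over all of them by Benjamini-Hochberg, with a threshold of 0.05. In simulated data for this contrast (16608 transcripts), 22, 46, 47 and 49 of 50 changed by 1.3, 1.5, 2 and 3-fold were recovered, and 8 of 172 calls were false. The simulated noise was independent for each transcript and lacked variation between spleens that many genes share. Only transcripts above a wild-type floor that Tfr2 does not reach were changed, so these rates need not hold for the iron genes. Lists take the transcript of highest mean per symbol. Named are the 10 genes, other iron genes past the threshold and the 2 most abundant, the leading genes of each marker list, Zfp36, and the 5 nearest profiles; Spic, Aco1, Glrx5, Steap3 and Lcn2 were named after their values were seen. Genes and lists were chosen with earlier results of these data known. Alternatives were other pseudocounts, filters, scalings and variance settings, 1 transcript per symbol, 2 covariates and leaving out each spleen. Figures used matplotlib 3.10.9.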

Additional observations from a re-analysis of the deposited data

Results flagged for a closer look

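TTPΔARE replicate 2 was far below the rest of its group for Fth1, at 127 FPKM against 162 to 166 in the coding row and 77.3 against 98.2 to 101 in the other row. Wild-type replicate 3 was far above the other wild-type spleens for Lcn2, the siderophore-binding lipocalin, at 6.47 FPKM against 1.22 to 1.46, and for the iron-binding lactoferrin gene Ltf, at 8.22 against 1.48 to 1.78. Both are neutrophil granule genes as well as genes of the iron list. Blvra, a biliverdin reductase, was lower in TTPΔARE replicate 2 than in the other TTPΔARE spleens, at 8.90 FPKM against 10.3 to 10.4. Wild-type replicates 2 and 4 were lower still, at 8.01 and 7.82 FPKM.

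Low genes were also picked out. Hamp, the hepcidin gene, was listed at 2.45 FPKM in wild-type replicate 2 and at 0 in the other wild-type spleens, and Tmprss6, another gene known from liver, at 0.388 in the same spleen against 0.00969 to 0.0320. Steap2 had 0.0467 FPKM in TTPΔARE replicate 2 against 0.0361 to 0.0367. For Hamp2 the single values above 0 were 0.0708 in wild-type and 0.0785 in TTPΔARE spleens, and for Hfe2 0.0175 and 0.0616. In all, 12 of 170 groups of 4 had 1 spleen this far out. Chance gives about 1 in 20 for independent groups of normally distributed values, which FPKM need not be. In 5 of the 12 the other spleens were all at 0, which sets the result by itself. A further 2 are rows of Fth1 that share nearly all bases of the shorter one. The count is therefore not read against that rate.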

How the results depend on the processing

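No paired analysis was possible because the labels number no replicates: the numbers used here only follow sample order within each genotype. Of 226 log2 values of the 12 rows under 19 alternatives, 200 kept their direction and their side of the threshold, 24 turned sign and 2 passed the threshold, Slc25a37 and Slc40a1 without wild-type replicate 3. With the erythroid covariate these turned sign: Tfr2 (-0.38), Tfrc (-0.27), Hmox1 (-0.12), Ftl1 (-0.10), the longer Slc11a2 row (-0.10), Slc11a1 (-0.06), Fth1 (-0.05) and Ireb2 (0.03). With the macrophage covariate Ftl1 (-0.08), Fth1 (-0.06), Hmox1 (-0.03) and Slc11a1 (-0.02) did. Quantile normalization gave 0.02 for the second Fth1 row. Leaving out 1 spleen turned the coding Fth1 row (lowest -0.04, highest 0.11), the second Fth1 row (-0.08 to 0.08), Ftl1 (-0.06 to 0.10) and the longer Slc11a2 row (-0.03 to 0.09). The others kept their sign, with ranges of 0.40 to 0.94 for Tfr2, 0.39 to 0.74 for Tfrc, 0.40 to 0.62 for Slc25a37, 0.18 to 0.39 for Slc40a1, 0.11 to 0.23 for the shorter Slc11a2 row, 0.02 to 0.30 for Hmox1, 0.05 to 0.21 for Slc11a1 and -0.10 to -0.03 for Ireb2. The cause was not tested.

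Over all transcripts 333 rose and 331 fell. With the erythroid covariate 0 rose and 0 fell by limma, with 1451 at an unadjusted p under 0.05, and with the macrophage covariate 48 and 55. With 1 transcript per symbol 239 rose and 215 fell, of 12410 tested, which is fewer. Leaving out 1 spleen gave 93 to 437 higher and 104 to 332 lower. The lowest counts came without TTPΔARE replicate 3, wild-type replicate 4 (114 higher, 136 lower) or TTPΔARE replicate 4 (117 and 137). Of the 10 iron genes 0 to 2 rose with 1 spleen left out, and 0 rose or fell under each other alternative. The uptake minus storage difference ranged from 0.22 to 0.45 with 1 spleen left out, and the Tfrc to Slc40a1 difference from 0.0104 to 0.0343. List counts without wild-type replicate 3, an alternative chosen after seeing the data, moved for other iron genes (1 to 4 higher), erythroid genes (6 to 25 higher), neutrophil genes (2 to 3 higher, median 0.27 to 0.77) and B cell genes (2 to 3 lower). Depth limits Tfr2 most, at 17 to 176 fragments per library.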

Other observations

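Relative to Alas2, Tfrc and Slc25a37 had a lower mean and a smaller spread in TTPΔARE than in wild-type spleens, in a ratio chosen after the values were seen and not tested. Tfrc to Alas2 ratios of FPKM were 0.317, 0.229, 0.80 and 0.650 in wild-type replicates 1 to 4 and 0.303, 0.273, 0.267 and 0.32 in the TTPΔARE replicates. Wild-type replicates 3 and 4 stood apart, and wild-type replicates 1 and 2 lay at or near the TTPΔARE range. Slc25a37 to Alas2 ratios showed the same split, with 0.827, 0.727, 1.73 and 1.45 against 0.806, 0.719, 0.592 and 0.681.

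The ratio of the longer to the shorter Slc11a2 row, the first of which holds the IRE, was 0.745, 0.765, 0.754 and 0.871 in wild-type and 0.807, 0.685, 0.695 and 0.663 in TTPΔARE spleens. TTPΔARE replicates 2, 3 and 4 were below every wild-type spleen and TTPΔARE replicate 1 was not.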
